A study of Homo sapiens with 8 samples.

Results

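The 47 genes described here are transcripts that interferons induce, among them RSAD2, and they were matched by symbol in count tables that list 63677 genes. All 47 were found. The genes were studied in DND-41 and MOLT-4, both established human lines of T-cell acute lymphoblastic leukaemia (T-ALL), grown in RPMI-1640 with fetal bovine serum. Cells of each line had received 100 nM ACBI-1 or the solvent DMSO for 3 h, which gave 4 groups of 2 libraries of total RNA. No group carried a genetic change made for the study, per the labels. ACBI-1 is a degrader that links the SMARCA2, SMARCA4 and PBRM1 subunits of the BAF and PBAF chromatin remodelling complexes to the VHL ubiquitin ligase. It acts on proteins, so RNA counts do not check it. The labels do not tie the replicates to separate cultures. Every p-value below is set against the spread between libraries of the same group, estimated with values shared over genes. The 2 libraries of a group could be technical repeats.

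Type I interferon binds the receptor pair IFNAR1 and IFNAR2, whose kinases JAK1 and TYK2 phosphorylate STAT proteins. STAT2 and IRF9 are subunits of the factor ISGF3, which binds the interferon-stimulated response element in the promoters of its targets, whereas the signal of interferon gamma acts through the gamma-activated site. The induced genes block steps of viral replication, sense foreign RNA, tag proteins with ISG15 and raise antigen presentation, and many cells keep a basal level of them without added interferon. RSAD2, also called viperin, encodes a radical SAM enzyme that converts CTP into a chain terminator of viral RNA synthesis. CMPK2, a mitochondrial nucleotide kinase, lies beside RSAD2 on chromosome 2 in the opposite orientation.

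The promoters of this pair are shown first, because the elements they hold overlap. The RefSeq promoter table (GRCh38.p14, 250 bases before to 50 after each annotated start) lists 2 starts for RSAD2, 11892 bases apart, and the gene-level counts do not tell their transcripts apart. The upstream window lies at chr2:6865635-6865934 and the downstream window at chr2:6877527-6877826, both on the plus strand. Capitals mark GAAACGAAA in the upstream window and, in the downstream window, the core of the response element, which is GAAA, any 2 bases and GAAA again. Both motifs were searched on both strands. They differ by 1 base in the spacing of the repeats, and their matches may overlap.
RSAD2, upstream start: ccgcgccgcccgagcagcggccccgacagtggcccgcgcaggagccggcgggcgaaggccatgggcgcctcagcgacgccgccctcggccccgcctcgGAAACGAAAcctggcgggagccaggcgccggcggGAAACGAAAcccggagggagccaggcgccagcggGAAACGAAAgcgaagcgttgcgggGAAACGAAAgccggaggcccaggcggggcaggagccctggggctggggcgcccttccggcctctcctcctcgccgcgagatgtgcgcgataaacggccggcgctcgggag
RSAD2, downstream start: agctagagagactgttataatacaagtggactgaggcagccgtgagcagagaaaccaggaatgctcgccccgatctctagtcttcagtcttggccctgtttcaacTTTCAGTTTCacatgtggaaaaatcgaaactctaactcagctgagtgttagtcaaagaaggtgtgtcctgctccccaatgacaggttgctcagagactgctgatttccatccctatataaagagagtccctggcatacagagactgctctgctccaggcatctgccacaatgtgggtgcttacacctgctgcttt
The upstream RSAD2 window held 4 copies of GAAACGAAA, at 152, 118, 84 and 60 bases before its start, and it was the only window among 35116 in the table with 3 or more. GAAACGAAA was searched for after it had been seen in these windows, so its count there is a description of how it was chosen. The window of the nearest CMPK2 start, chr2:6865770-6866069 on the minus strand, shares 165 bases with it, and the starts of the 2 genes are 66 bases apart. Of the 4 copies, 2 lie inside the shared stretch and read as TTTCGTTTC toward CMPK2, at 14 bases before and 11 bases after the CMPK2 start, as in ccggcTTTCGTTTCcccgc and ttcgcTTTCGTTTCccgct. The downstream RSAD2 window held the core element once, 145 bases before its start, on the minus strand.

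Promoter windows were found for 38 of the 47 genes (DDX58 under its newer symbol RIGI), in 55 windows. PML, OASL, IFIT2, IRF7, USP18, IRF2, OAS2, MX2 and TRIM22 had no entry. The core element was present for 24 of the 38 (63.2%), against 1195 of all 27305 genes in the table (4.38%). The gamma-activated site TTCNNNGAA was present for 12 of the 38 (31.6%), against 9.38% of all genes. GAAACGAAA was present for 9 of the 38 (23.7%), against 0.205% of all genes. These matches describe letters in a window of 300 bases and say nothing of what is bound there. A set of sites from genes that are named below shows the 3 motifs, with capitals on the matched letters. The ISG15, DDX60, IFIT1 and DTX3L sites are core elements, the OAS1 and XAF1 sites are GAAACGAAA, and the IRF1 site is a gamma-activated site.
ISG15, 107 bases before the start: aaaggGAAACCGAAActgaa
DDX60, 53 bases before the start: gaaagGAAACCGAAActccc
IFIT1, 103 bases before the start: tccccTTTCGGTTTCcctag
DTX3L, 6 bases before the start: gaagcGAAACTGAAActttg
OAS1, 17 bases before the start: ctgagGAAACGAAAccaac
XAF1, 5 bases before the start: tgcaaGAAACGAAActcaa
IRF1, 124 bases before the start: ctgatTTCCCCGAAatgac
The OAS1, XAF1 and IRF1 windows held no core element. The SAMD9L window held none of the 3 motifs.

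Depth was even, between 19867779 and 20082524 counts per library, and all values below are CPM (read counts of a gene relative to the total of its library) scaled by TMM factors over the 8 libraries. All 9 T-lineage markers were detected in both lines, and their summed level was 5145 to 5272 CPM in DND-41 and 2618 to 2800 CPM in MOLT-4. Markers of plasmacytoid dendritic cells, strong producers of interferon, summed to at most 0.248 CPM, and those of myeloid cells to at most 0.620 CPM. The B-lineage sum in DND-41 (1522 to 1757 CPM) came almost wholly from CD79A, with MS4A1 and PAX5 at 0 in its DMSO libraries. Mitochondrial transcripts took 13.3% to 20.04% of counts, and within each line the ACBI-1 and DMSO libraries overlapped in that share. The 2 DND-41 ACBI-1 libraries differed most, with a mean squared deviation per gene of 17.2 times counting error. That value was 3.19 in DND-41 DMSO, 5.58 in MOLT-4 DMSO and 4.62 in MOLT-4 ACBI-1. The DND-41 DMSO replicate 2 library held reads of 26 genes marking MOLT-4 at a median of 0.558% of the MOLT-4 level, against 0.0219% in DMSO replicate 1. These genes were chosen for near absence from the DND-41 ACBI-1 libraries, so the low values there were set by the choice. In the MOLT-4 DMSO libraries, 5 genes marking DND-41, chosen in the same way, stood at 0 and 0.0598% of the DND-41 level.

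RSAD2 rose in both lines, and of the interferon-stimulated genes tested it had the largest increase in each. In DND-41 it stood at 7.68 and 9.63 CPM in the DMSO libraries and at 15.4 and 14.1 CPM in the ACBI-1 libraries. In MOLT-4 it stood at 6.03 and 6.51 CPM in DMSO and at 23.7 and 19.3 CPM with ACBI-1. Both treated libraries lay above both controls in each line, and the treated MOLT-4 libraries lay above those of DND-41 although the MOLT-4 controls lay below. The means went from 8.66 ± 1.38 to 14.8 ± 0.913 CPM in DND-41 and from 6.27 ± 0.341 to 21.5 ± 3.13 CPM in MOLT-4 (SD, n = 2 each). By edgeR's quasi-likelihood test, with p adjusted over all genes tested, the log2 fold change was 0.79 ± 0.13 (SE; adjusted p = 3.72e-05) in DND-41, a 1.72-fold rise. In MOLT-4 it was 1.77 ± 0.13 (adjusted p = 1.97e-10), a 3.41-fold rise, the largest in that line among genes that rose with a mean of at least 5 CPM. In bulk RNA, more transcript per cell and more cells with the transcript cannot be told apart. The RSAD2 values rest on 156 to 314 reads per DND-41 library and 117 to 471 per MOLT-4 library. Without ACBI-1 replicate 1 or 2 the edgeR adjusted p for RSAD2 was 0.173 or 0.0765 in DND-41 and 0.271 or 0.0733 in MOLT-4, with fold changes of 0.72, 0.85, 1.61 and 1.92 on the log2 scale.

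CMPK2 rose with RSAD2 in both lines, by less. It stood at 47.7 and 47.2 CPM in the DND-41 DMSO libraries and at 69.5 and 65.5 CPM with ACBI-1. In MOLT-4 it stood at 39.0 and 36.4 CPM in DMSO and at 80.2 and 63.4 CPM with ACBI-1. Again no treated library overlapped a control, and the 2 treated MOLT-4 libraries were far apart, with replicate 1 the higher for both genes. The log2 fold change was 0.53 ± 0.07 (SE; edgeR adjusted p = 5.85e-06) in DND-41 and 0.92 ± 0.09 (adjusted p = 3.64e-08) in MOLT-4, or 1.44-fold and 1.89-fold. Among the interferon-stimulated genes tested it ranked 5th in DND-41 and 2nd in MOLT-4. Leaving out ACBI-1 replicate 1 gave it an adjusted p of 0.106 in DND-41 (log2 0.48) and 0.271 in MOLT-4 (0.74), and without replicate 2 it was 0.0733 in MOLT-4 (1.09).

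The read ratio of the 2 neighbours lay apart between groups in both lines. For every 100 reads of CMPK2 the MOLT-4 DMSO libraries held 15.44 and 17.87 reads of RSAD2, and the ACBI-1 libraries held 29.59 and 30.45. In DND-41 the DMSO libraries held 16.12 and 20.42 and the ACBI-1 libraries 22.16 and 21.53. The gap between them was wide in MOLT-4 and narrow in DND-41, within 2 libraries a group and with no test of the ratio. Per kilobase of exon, RSAD2 stood at 0.1374 to 0.1817 of the CMPK2 level in the 4 DMSO libraries.

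**Figure D1:**
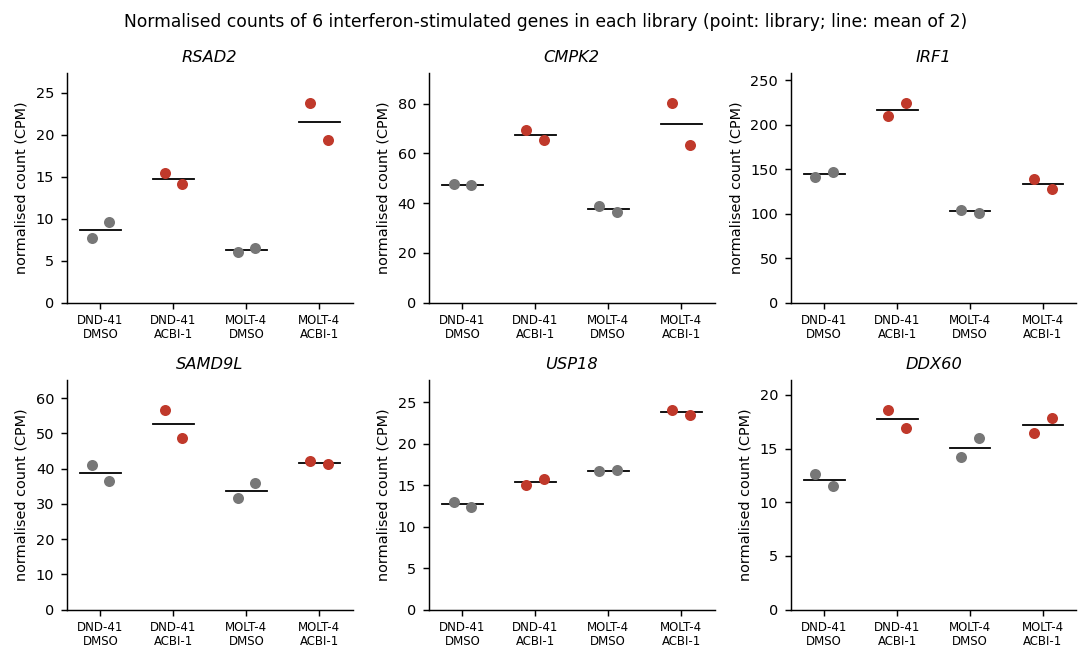
Normalised counts (CPM, vertical axes from 0) of RSAD2, CMPK2, IRF1, SAMD9L, USP18 and DDX60 in each of the 8 libraries, in grey for DMSO and red for ACBI-1, with a line at the mean of 2. RSAD2 reached 23.7 and 19.3 CPM in treated MOLT-4 cells from 6.03 and 6.51 CPM in DMSO, while DDX60 in MOLT-4 lay at 14.2 to 17.9 CPM.

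None of the genes beside CMPK2 and RSAD2 passed as higher in both lines. RefSeq places NRIR on the CMPK2 side, and GRASLND and RNF144A on the RSAD2 side. RNF144A, a ubiquitin ligase gene, stood at 104 and 103 CPM in DND-41 DMSO and 106 and 107 CPM with ACBI-1 (log2 0.06, edgeR adjusted p = 0.655). In MOLT-4 it rose from 37.4 and 33.6 to 46.6 and 42.0 CPM (0.31 ± 0.08, adjusted p = 0.012). GRASLND, a long noncoding RNA, fell in DND-41 from 51.0 and 50.8 to 41.3 and 43.6 CPM (-0.25 ± 0.08, adjusted p = 0.036) and was near 0 in MOLT-4. NRIR, a long noncoding RNA named as a regulator of the interferon response, had 11 and 20 reads in DND-41 DMSO and 28 and 18 with ACBI-1 (0.56 ± 0.38, adjusted p = 0.445), so its groups overlapped. In MOLT-4 NRIR had 4 and 4 reads in DMSO and 7 and 5 with ACBI-1, too few to test, so whether it rose there was not tested.

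In DND-41, 46 of the 47 genes passed the filter on low counts, and 8 of these (17.4%) passed the 5% threshold, 5 higher and 3 lower, where 9.83% of all genes did (3.78% higher and 6.05% lower). In MOLT-4, 45 were tested and 10 (22.2%) passed, 6 higher and 4 lower, where 10.8% of all genes did (3.9% higher and 6.94% lower). Scaling by total counts left 6 higher and 1 lower, PML, in MOLT-4. With RSAD2 and CMPK2 set aside, 6 of 44 (13.6%) passed in DND-41, 3 in each direction, and 8 of 43 (18.6%) in MOLT-4, 4 in each direction. The median log2 fold change of these others was 0.06 in DND-41 and -0.02 in MOLT-4, beside 0.0029 and -0.00095 over all genes tested. RSAD2, CMPK2, SAMD9L and IRF1 rose in both lines, as did 208 of all 12968 genes tested in both (1.6%). DTX3L and PML fell in both, as did 431 of all 12968 genes tested in both. DESeq2 called neither of the 2 lower in DND-41, and only PML in MOLT-4. Of the 45 genes tested in both lines, 33 passed in neither. Fold changes had the same sign in both lines for 37, of which 20 were positive and 17 negative. Neither count was made over all genes, so neither is read as particular to these 45. By edgeR, RSAD2 thus rose together with CMPK2, SAMD9L and IRF1, while most of the list passed in neither line. DESeq2 called RSAD2, CMPK2 and IRF1 higher in both lines, and SAMD9L in DND-41 only.

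**Figure D2:**
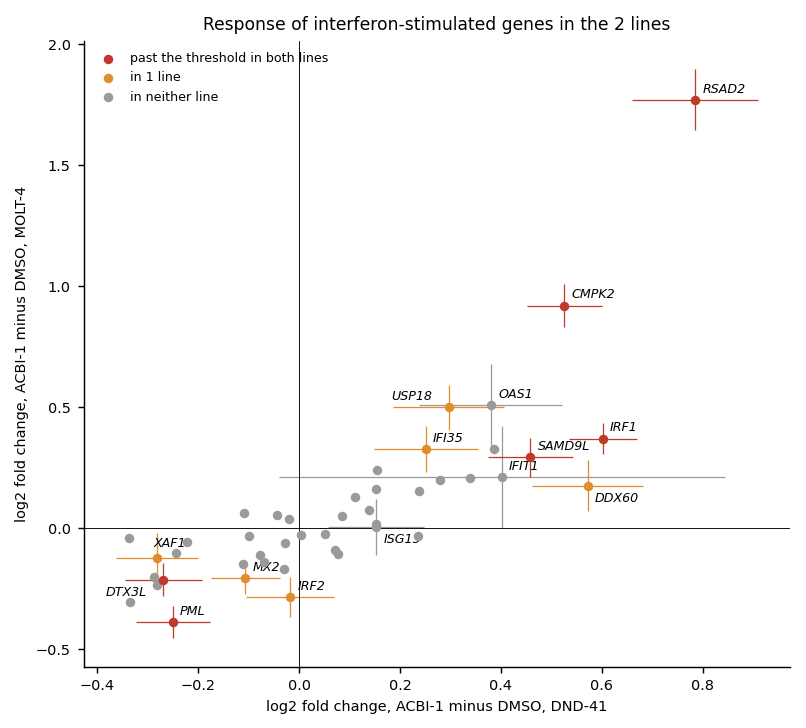
Log2 fold change with ACBI-1 against DMSO in DND-41 (horizontal) and MOLT-4 (vertical) for the 45 genes tested in both lines, coloured by the lines in which each passed the 5% threshold, with standard errors as bars on the named genes. RSAD2 (0.79, 1.77) and CMPK2 (0.53, 0.92) lie apart at the upper right, and 33 genes in grey passed in neither line.

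The 2 libraries of a group separate a gene easily, so counts without overlap were read beside all genes. In DND-41 both ACBI-1 libraries lay above both DMSO libraries for 18 of the 46 genes tested and below them for 15, where 21.4% and 27.5% of all genes tested did so. In MOLT-4 the counts were 16 above and 10 below of the 45 tested, beside 26% and 24.9% of all genes.

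Among the antiviral effectors, 3 of 25 tested in DND-41 rose (12%, beside 3.78% of all genes) and 1 fell (4.0%, beside 6.05%). In MOLT-4 4 of 24 rose (16.7%, beside 3.9%) and 1 fell (4.17%, beside 6.94%), and RSAD2 and CMPK2 are among those that rose in each line. SAMD9L, a factor that restrains viral growth and translation, rose from 41.1 and 36.5 to 56.7 and 48.8 CPM in DND-41 (0.46 ± 0.09, edgeR adjusted p = 0.000296) and from 31.6 and 35.9 to 42.0 and 41.2 CPM in MOLT-4 (0.29 ± 0.08, adjusted p = 0.016). Its treated libraries lay above the controls in both lines. Its tandem neighbour and relative SAMD9 did not pass in either, with fold changes of 0.05 and -0.02. IFI35, a partner of NMI, rose in MOLT-4 from 18.7 and 19.8 to 25.4 and 23.2 CPM (0.33 ± 0.09, adjusted p = 0.023). In DND-41, where IFI35 went from 15.7 and 14.8 to 17.95 and 17.96 CPM (0.25, adjusted p = 0.132), it lay in the same direction and did not pass. XAF1, an antagonist of the apoptosis inhibitor XIAP, fell in DND-41 from 39.4 and 38.1 to 30.7 and 32.4 CPM (-0.28 ± 0.08, adjusted p = 0.021), and its groups overlapped in MOLT-4 (-0.12, adjusted p = 0.536). MX2, a dynamin-like GTPase that blocks nuclear entry of HIV-1, fell in MOLT-4 from 111 and 107 to 94.9 and 95.0 CPM (-0.21 ± 0.06, adjusted p = 0.031).

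MX1 and the tested genes of the IFIT, OAS and IFI44 families did not pass in either line. MX1, the paralogue next to MX2, stood at 11.7 and 13.2 CPM in DND-41 DMSO against 11.5 and 12.7 CPM with ACBI-1, and at 40.8 and 37.1 against 40.8 and 39.7 CPM in MOLT-4. Its log2 fold changes were -0.02 ± 0.12 and 0.04 ± 0.08. IFIT1, which binds RNA lacking cap methylation, was low in DND-41 (0.492 to 0.771 CPM) and stood at 2.42 and 3.25 CPM in MOLT-4 DMSO against 3.23 and 3.39 CPM with ACBI-1. The IFIT1 fold change in DND-41, 0.40 ± 0.44 on the log2 scale, shows how little these counts constrain it. IFIT2, IFIT3 and IFIT5, which lie in the same cluster on chromosome 10, had fold changes of 0.39, -0.11 and -0.34 in DND-41 and 0.33, 0.06 and -0.04 in MOLT-4. For IFIT5 both treated DND-41 libraries lay below both controls (edgeR adjusted p = 0.070). OAS1, a synthetase of the 2'-5' oligoadenylates that activate RNase L, had the largest fold change in MOLT-4 among the genes that missed the threshold. It went from 6.45 and 7.74 to 8.68 and 9.58 CPM in DND-41 (0.38 ± 0.14, adjusted p = 0.089) and from 4.79 and 3.77 to 5.80 and 6.47 CPM in MOLT-4 (0.51 ± 0.17, adjusted p = 0.053). By DESeq2 it did not pass in MOLT-4 either (adjusted p = 0.335). Without MOLT-4 DMSO replicate 1 or 2 the OAS1 change there was 0.69 or 0.35. Without ACBI-1 replicate 1 or 2 OAS1 had 0.59 or 0.44. Its cluster neighbours OAS2 and OAS3 had negative fold changes in both lines, from -0.24 to -0.07, and none passed. IFI44 and IFI44L, adjacent on chromosome 1, had 0.11 and -0.29 in DND-41 and 0.13 and -0.20 in MOLT-4.

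OASL and IFI27 were at the limit of detection. OASL had 7 and 6 reads in the DND-41 DMSO libraries and 3 and 3 with ACBI-1, and 0 in both MOLT-4 DMSO libraries against 2 and 2 with ACBI-1. A count of 0 allows up to 3 reads, so no fold is given. IFI27 stood at 0.155 and 0.155 CPM in MOLT-4 DMSO and 0.403 and 0.359 CPM with ACBI-1 and was too low there to test. For IFI27 in DND-41 the change was 0.57 ± 0.42 on the log2 scale (edgeR adjusted p = 0.482).

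All 3 RNA sensors had positive fold changes in both lines. Of all genes tested, 7098 of 14019 had a positive change in DND-41 and 7199 of 14470 in MOLT-4. In DND-41 1 sensor passed, where 9.83% of all genes did, and in MOLT-4 0 passed, where 10.8% did. In MOLT-4 1 sensor had an unadjusted p under 0.05 and DESeq2 called 0. DDX60, a helicase linked to signalling by the RIG-I-like receptors, rose in DND-41 from 12.6 and 11.5 to 18.6 and 16.9 CPM (0.57 ± 0.11, edgeR adjusted p = 0.000477). In MOLT-4 it went from 14.2 and 16.01 to 16.4 and 17.9 CPM (0.18 ± 0.11, adjusted p = 0.352), and the difference between the lines did not pass (-0.37 ± 0.15, adjusted p = 0.476). DDX58, which encodes RIG-I, had 0.34 (adjusted p = 0.083) in DND-41 and 0.21 (0.181) in MOLT-4, and IFIH1, which encodes MDA5, had 0.15 and 0.02.

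Of the 5 genes of the ISG15 system, 1 rose in MOLT-4, where 3.9% of all genes rose. In DND-41 0 of the 5 passed, where 9.83% of all genes did, while 2 had an unadjusted p under 0.05 and DESeq2 called 0. USP18, the protease that removes ISG15 from proteins and also blocks signalling at IFNAR2, rose in MOLT-4 from 16.7 and 16.8 to 24.1 and 23.5 CPM (0.50 ± 0.09, edgeR adjusted p = 0.000565). Its DND-41 libraries lay in the same order, at 12.9 and 12.4 CPM in DMSO and 15.0 and 15.8 CPM with ACBI-1 (0.30 ± 0.11, adjusted p = 0.086). USP41, a near copy of USP18 with which it could share reads, had at most 18 reads in a library. ISG15 itself stood at 21.3 and 23.9 CPM in DND-41 DMSO and 23.2 and 26.5 CPM with ACBI-1 (0.15 ± 0.10, adjusted p = 0.384), and at 11.6 and 11.9 against 12.5 and 11.3 CPM in MOLT-4 (0.005 ± 0.12, adjusted p = 0.985). Its groups overlapped in both lines. The ligase HERC5 had -0.28 (edgeR adjusted p = 0.184) and -0.24 (0.054), with both treated libraries below both controls in each line. Its neighbour HERC6 had 0.23 and -0.03, and the conjugating enzyme UBE2L6 0.0034 and -0.03.

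The transcription factors split. IRF1, which binds the promoters of many interferon-induced genes, rose from 142 and 147 to 209.8 and 224 CPM in DND-41 (0.60 ± 0.07, edgeR adjusted p = 7.32e-08), 1.52-fold. In MOLT-4 it rose from 104 and 101 to 139 and 128 CPM (0.37 ± 0.06, adjusted p = 0.000208), 1.29-fold. The related IRF2, which can oppose IRF1, fell in MOLT-4 from 31.6 and 32.8 to 26.1 and 27.1 CPM (-0.28 ± 0.08, adjusted p = 0.025) and overlapped between groups in DND-41 (-0.02, adjusted p = 0.946). The ISGF3 subunits STAT2 and IRF9 had -0.10 and 0.08 in DND-41 and -0.03 and -0.11 in MOLT-4, and none passed. IRF7, which drives production of interferon alpha, stood at 10.6 and 10.1 CPM in DND-41 DMSO and 8.39 and 7.90 CPM with ACBI-1 (-0.33, adjusted p = 0.105).

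Some of the genes that fell belong to nuclear complexes. PML, which organises PML nuclear bodies, fell from 70.7 and 70.0 to 56.1 and 60.9 CPM in DND-41 (-0.25 ± 0.07, edgeR adjusted p = 0.023). In MOLT-4 it fell from 160.3 and 157 to 129 and 114 CPM (-0.39 ± 0.07, adjusted p = 0.00016). SP100, the other nuclear body gene, had -0.03 and -0.06. DTX3L, a ubiquitin ligase that works with PARP9, fell from 60.3 and 66.0 to 54.0 and 49.7 CPM in DND-41 (-0.27 ± 0.08, adjusted p = 0.018) and from 61.2 and 64.5 to 54.0 and 55.1 CPM in MOLT-4 (-0.21 ± 0.07, adjusted p = 0.047). PARP9, which shares the DTX3L promoter region, had -0.03 and -0.17, and PARP14, beside them, had -0.08 and -0.11. All 3 antigen processing genes had positive fold changes, as did 7098 of all 14019 genes tested in DND-41 and 7199 of 14470 in MOLT-4. Of the 3, 0 passed in either line, where 9.83% (DND-41) and 10.8% (MOLT-4) of all genes did. An unadjusted p under 0.05 was found for 1 in DND-41 and 2 in MOLT-4, and DESeq2 called 0. The nearest to the threshold was TAP1, a subunit of the peptide transporter, in DND-41 at 31.7 and 33.3 CPM in DMSO and 38.1 and 37.8 CPM with ACBI-1 (0.24, adjusted p = 0.058).

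These calls depend on single libraries and on the test. Without ACBI-1 replicate 1, edgeR called 0 of the 46 genes in DND-41 (19 at an unadjusted p under 0.05) and 3 of all genes. Without replicate 2 it called 2 members, CMPK2 and IRF1, and 177 of all genes. In MOLT-4, leaving out either ACBI-1 library left 0 calls among the members (9 and 11 at an unadjusted p under 0.05) and 0 among all genes. IFI6 in MOLT-4 stood at 49.3 and 26.4 CPM in DMSO and at 46.4 and 43.6 CPM with ACBI-1, so DMSO replicate 2 lay apart. With all 4 libraries IFI6 had 0.24 (edgeR adjusted p = 0.348). Without DMSO replicate 1 it had 0.76, and without DMSO replicate 2 it had -0.14. With no filter on low counts edgeR called 0 members in DND-41 (15 at an unadjusted p under 0.05) and RSAD2 alone in MOLT-4. Of all genes it then called 2 in DND-41 and 39 in MOLT-4. DESeq2 called 5 members in each line, namely RSAD2, CMPK2, IRF1, SAMD9L and DDX60 in DND-41, and RSAD2, CMPK2, IRF1, USP18 and PML in MOLT-4. The same genes passed 0.05 in the authors' deposited table of each line.

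**Figure D3:**
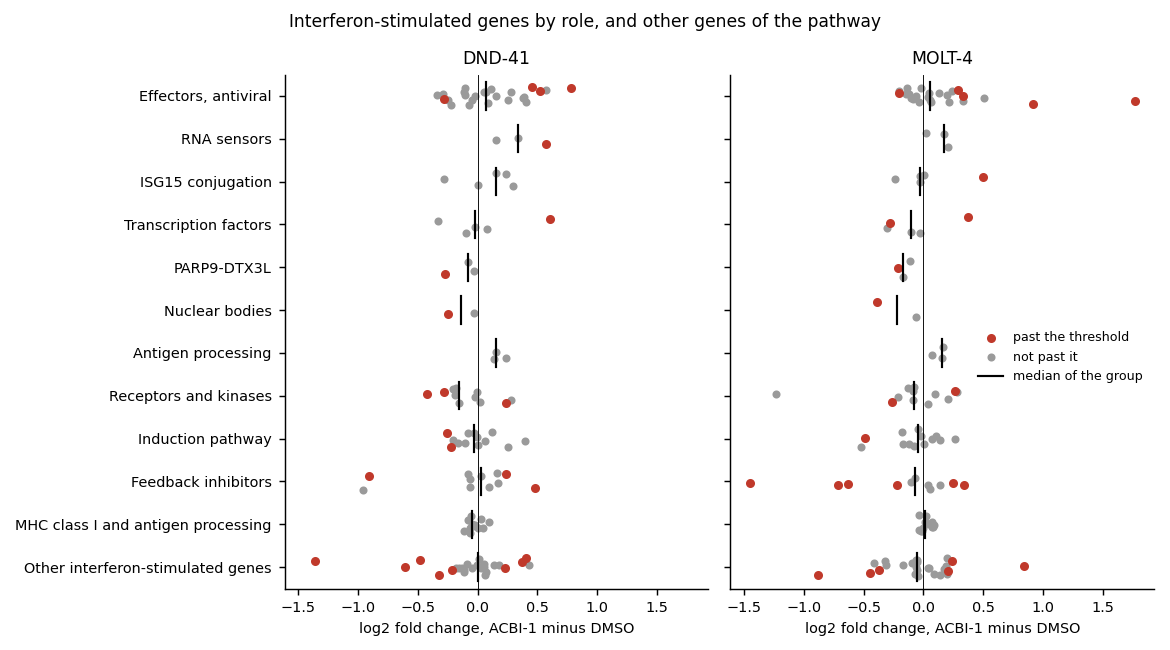
Log2 fold changes with ACBI-1 against DMSO (horizontal) in DND-41 and MOLT-4, one point per tested gene, for the 7 role groups of the 47 genes and, below them, 5 lists of other genes of the pathway, with genes past the 5% threshold in red and a black bar at each median. The medians of all groups lie between -0.22 and 0.34, while RSAD2 in MOLT-4 lies at 1.77.

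The rest of the pathway was looked at for the same samples. Interferon transcripts were almost undetected, since 16 of 21 ligand genes were at 0 in all 8 libraries, the highest count was 1, and the 21 genes had 6 reads in all. IFNB1 had 1 read in DND-41 DMSO replicate 2 and 1 in MOLT-4 DMSO replicate 1. The receptor chains IFNAR1 and IFNAR2 had -0.16 and -0.18 in DND-41 and 0.04 and -0.21 in MOLT-4, and none passed. Among the receptors and their signalling genes, IFNGR2 (-0.42) and STAT3 (-0.28) fell in DND-41, and IL10RB (-0.27) fell in MOLT-4. Among genes that sense nucleic acids and induce interferon, 0 of 13 rose in DND-41, beside 3.78% of all genes. There 2 fell (15.4%, beside 6.05%), namely MYD88 (-0.26) and TRIM25 (-0.22). In MOLT-4 0 of 13 rose, beside 3.9%, and 1 fell (7.69%, beside 6.94%), TMEM173, which encodes STING (-0.49). IRF3 had -0.0082 and 0.11, and IRF8 had at most 1 read in a DND-41 library and 41 to 55 in a MOLT-4 library.

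Inhibitors of the pathway changed in both directions. TRIM21, a ubiquitin ligase and antibody receptor in the cytosol, rose by 0.48 in DND-41 and 0.34 in MOLT-4 on the log2 scale, and PTPN2, a phosphatase that acts on JAK1, rose by 0.24 and 0.25. PTPN6, the phosphatase SHP-1, fell in DND-41 from 3.50 and 3.87 to 1.62 and 2.26 CPM and in MOLT-4 from 40.4 and 33.9 to 24.3 and 21.1 CPM. SOCS3, CISH and PIAS1 fell in MOLT-4 (-1.45, -0.63 and -0.22) and did not pass in DND-41 (-0.96, -0.08 and -0.06), and the difference between the lines did not pass for any of them. Of 12 genes of MHC class I presentation tested, 0 passed in either line, where 9.83% (DND-41) and 10.8% (MOLT-4) of all genes did. None of the 12 had an unadjusted p under 0.05 and DESeq2 called 0, with medians of -0.04 and 0.01. Of 26 further interferon-stimulated genes tested in each line, 3 rose (11.5%, beside 3.78% of all genes) and 5 fell (19.2%, beside 6.05%) in DND-41. In MOLT-4, 3 rose (11.5%, beside 3.9%) and 3 fell (11.5%, beside 6.94%). ZNFX1, a sensor of viral RNA at mitochondria, rose in both (0.37 and 0.20). RTP4, which encodes a receptor transporter protein, rose in MOLT-4 from 3.19 and 2.07 to 5.54 and 3.95 CPM (0.84 ± 0.22, edgeR adjusted p = 0.011), 1.79-fold, and had 0.43 in DND-41 (adjusted p = 0.12). That RTP4 call was lost with DESeq2 (adjusted p = 0.119), with no filter (edgeR, 0.356), without either ACBI-1 library (0.521 and 0.234) and without DMSO replicate 2 (0.13). TNFSF10, which encodes the death ligand TRAIL, fell in both lines (-0.32 and -0.89). In MOLT-4 TRIM14 rose (0.24), and ZC3HAV1, which encodes the zinc finger antiviral protein, and LAMP3 fell (-0.37 and -0.45). The guanylate-binding protein genes GBP4 and GBP5, targets of interferon gamma, fell in DND-41 from 159 and 139.6 to 106 and 106 CPM and from 123 and 129 to 74.2 and 89.1 CPM. Over all these lists together, 16 of 73 genes (21.9%) passed in DND-41, where 9.83% of all genes did, and 15 of 74 (20.3%) in MOLT-4, where 10.8% did.

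Genes that rose were found with and without the core element. In DND-41, 2 of 24 genes with the core element in a window rose and 1 fell, with a median log2 fold change of 0.06, and 3 of 14 without it rose and 1 fell, with a median of 0.19. In MOLT-4, 1 of 23 with it rose and 1 fell (median 0.02), and 4 of 14 without it rose and 0 fell (median 0.11). Of all genes tested, 3.78% rose and 6.05% fell in DND-41, and 3.9% rose and 6.94% fell in MOLT-4. The 9 genes without a window are left out, among them USP18, PML, MX2 and IRF2, which each passed in at least 1 line. RSAD2 is the gene with the element that rose in both lines, and it holds it in the downstream window only. CMPK2, IRF1 and SAMD9L hold it in none of their windows. No test was made of these counts.

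The response of RSAD2 was larger in MOLT-4 than in DND-41 by 1.01 ± 0.19 on the log2 scale (SE; edgeR adjusted p = 0.006), in a fit of all 8 libraries, which shares its libraries with the 2 comparisons above. It was the only 1 of 46 genes to pass this test, which 0.641% of all genes passed. CMPK2 had a difference of the same sign, 0.42 ± 0.12, that did not pass (adjusted p = 0.151). For IRF1 the response was larger in DND-41, by a difference of -0.21 ± 0.09 that did not pass (adjusted p = 0.58). Without DND-41 DMSO replicate 2 the RSAD2 difference was 0.84, and without MOLT-4 ACBI-1 replicate 1 it was 0.82, and it passed in neither. With no filter on low counts it was 0.99 and did not pass (edgeR adjusted p = 0.227). Without MOLT-4 ACBI-1 replicate 2 the CMPK2 difference was 0.55 and passed (0.040).

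In DMSO the lines differed in most of these genes. Of 46 tested, 39 passed the 5% threshold (16 higher and 23 lower in MOLT-4), where 64.4% of all genes did, so a difference between the lines was common to genes in general. RSAD2 was 1.38-fold lower in MOLT-4 (log2 -0.47 ± 0.15, edgeR adjusted p = 0.008) and CMPK2 1.26-fold lower (-0.33, adjusted p = 0.002). IFI44L was 6.62-fold lower in MOLT-4, at 0.670 against 4.47 CPM on average, and IRF7, PLSCR1, IFIT5, XAF1 and IFI6 were 2.59-fold to 2.08-fold lower. The IFI6 libraries of MOLT-4 DMSO were far apart, at 49.3 and 26.4 CPM. IFIT1 was 5.41-fold higher in MOLT-4, at 2.84 against 0.519 CPM, and HERC6, MX1, HERC5, PML and IFIT2 were 3.24-fold to 1.89-fold higher. The same family could therefore split, as IFIT1 was higher and IFIT5 lower in MOLT-4.

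**Figure D4:**
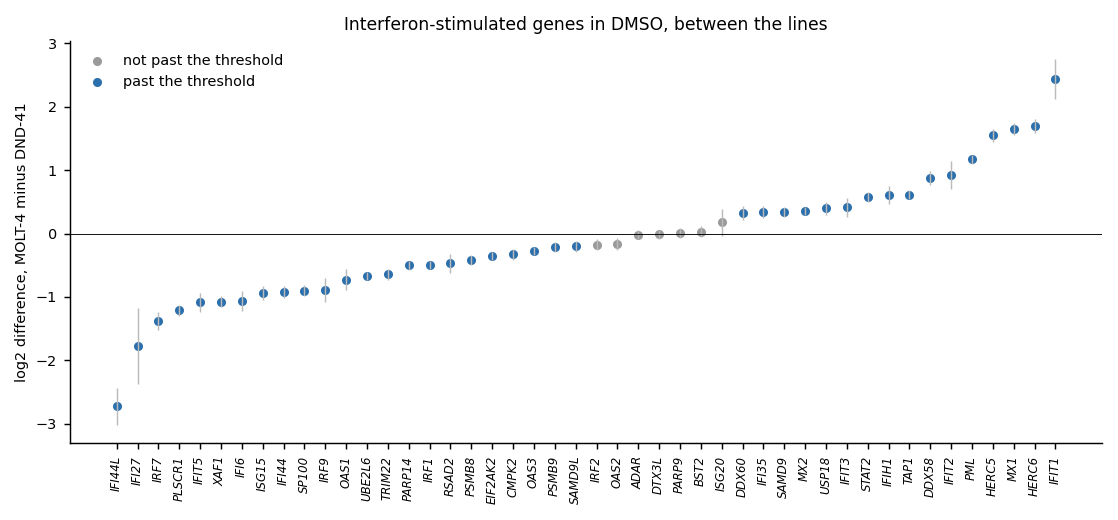
Log2 difference in DMSO, MOLT-4 minus DND-41 (vertical), with standard errors as bars, for the 46 genes tested, ordered by size. IFI44L (-2.73) and IFIT1 (2.44) mark the ends, and RSAD2 (-0.47) and CMPK2 (-0.33) lie on the side that was lower in MOLT-4.

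Per kilobase of exon, UBE2L6 had the highest level in DMSO in both lines, at 119.8 CPM per kb in DND-41 and 75.7 in MOLT-4. IFI6, a mitochondrial and endoplasmic reticulum protein gene, and ADAR, which edits adenosine in double-stranded RNA, took the next 2 places, in opposite orders in the 2 lines. CMPK2 was 12th of 47 in DND-41 (11.02 CPM per kb) and 16th in MOLT-4 (8.77). RSAD2 was 35th (1.79) and 39th (1.30), so the gene with the largest increase was among the lower ones at the start. With ACBI-1 RSAD2 reached 3.05 CPM per kb in DND-41 and 4.45 in MOLT-4, still under CMPK2 at 15.7 and 16.7.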

How the data were processed

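Strand-specific paired-end RNA libraries were sequenced on the DNBSEQ platform, per the labels' protocols. The authors deposited raw read counts per gene, 1 table per line, and their own DESeq2 tables with log2 fold changes and adjusted p-values, per the file headers. The submitters' processing notes name the build hg19 and the tools featureCounts, STAR 2.5.2a and DESeq2 1.12.4. Which annotation and strand option the counting used is not given in the sources used here. Overlapping and antisense genes, and near copies such as USP18 and USP41, may therefore share reads. The sign of the deposited MOLT-4 table was read from its correlation with the counts, since it was the reverse of the DND-41 table.

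Libraries were grouped by title. Counts were tested with edgeR 4.0.16 (R 4.3.3; TMM factors, filterByExpr, quasi-likelihood F-test, Benjamini-Hochberg adjustment over all genes tested, threshold 5%), within each line on its 4 libraries, and over all 8 libraries for the difference between responses and the lines in DMSO. Standard errors are the log2 fold change divided by the square root of F. DESeq2 1.42.0, other scalings, no filter, a 1% threshold, the replicate block and the omission of each library were tried as alternatives. Total counts of 19867779 to 20082524 give about 20 reads at 1 CPM, and floors cover counting error only. Exon lengths came from GENCODE 29 by Ensembl identifier. PSMB8, PSMB9 and TAP1 have 21 further haplotype identifiers, all at 0 and not used.

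The members and lists were chosen with earlier results of these data known, so nothing was tested over the list. Named are RSAD2 and CMPK2, every member past the threshold, the 6 largest differences between lines in each direction (at least 1 CPM in the higher line), members in a cluster with a called one, genes beside RSAD2, and for each pathway list the genes with the smallest p. DTX3L, IFIT1, OAS1 and ISG15 sites were chosen for display after the values were seen. One gene of the pathway lists is not reported here.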

Additional observations from a re-analysis of the deposited data

Results flagged for a closer look

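The response of RSAD2 to ACBI-1 differed between the lines, with a log2 fold change in MOLT-4 that exceeded that in DND-41 by 1.01 (edgeR's quasi-likelihood test of the difference, adjusted p = 0.006 over all genes tested). It was the only interferon-stimulated gene of 46 for which the test of the difference passed, by edgeR and by DESeq2 alike, and 4 of the 46 had an unadjusted p under 0.05. Both treated MOLT-4 libraries (23.7 and 19.3 CPM) lay above both treated DND-41 libraries (15.4 and 14.1 CPM), and both MOLT-4 controls lay below those of DND-41. Over all alternatives that kept 8 libraries and the filter, the difference lay between 0.99 and 1.01. Without the filter on low counts it was 0.99 and did not pass (edgeR adjusted p = 0.227), nor did it without DND-41 DMSO replicate 2 (0.84, adjusted p = 0.089) or MOLT-4 ACBI-1 replicate 1 (0.82, adjusted p = 0.093).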

How the results depend on the processing

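Counts of members past the threshold moved with the test, the filter and single libraries. DESeq2 called 5 in each line, and a 1% threshold left 5 in each. Testing all genes with a count, without the filter, left 0 in DND-41, 1 in MOLT-4 and 0 for the difference between responses. In both lines calls over all genes fell as well under each of these settings, from 1378 (DND-41) and 1568 (MOLT-4). The fall is therefore not read as particular to the members. Among members other than RSAD2 and CMPK2, DESeq2 and the 1% threshold each called 3 per line, no filter 0 per line, and scaling by total counts 5 in MOLT-4. Without the filter RSAD2 in DND-41 had 0.78 (edgeR adjusted p = 0.137), and CMPK2 0.52 in DND-41 (0.0879) and 0.92 in MOLT-4 (0.0951). Leaving out 1 library gave 0 to 5 members in DND-41, 0 to 8 in MOLT-4 and 0 to 2 for the difference (other members 0 to 3 and 0 to 6), and log2 fold changes of 0.63 to 0.95 and 1.61 to 1.92 for RSAD2 and 0.48 to 0.57 and 0.74 to 1.09 for CMPK2. A lone library was then assumed to vary like the other groups, and the fit has fewer samples. With the replicate block 15 members passed in DND-41 (13 other than RSAD2 and CMPK2), 13 in MOLT-4 and 2 for the difference, and calls over all genes were 2230 against 1378, 2228 against 1568 and 302 against 100. Replicate numbers were not shown to pair libraries, since deviations of same-numbered libraries correlated at 0.109 (DND-41) and 0.0867 (MOLT-4), over 2 pairs each. The comparison of the lines in DMSO gave 34 to 41 calls against 39. No call reversed its direction under any alternative run. Scaling moved the median of all genes by under 0.03 on the log2 scale.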
